A study of Mus musculus with 5 samples.

Results

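The genes described here are 10 regulators of podosomes and of the actin cytoskeleton: Rac2, Capg, Gsn, Pstpip1, Anxa2, Vcl, Bcar1, Ptk2b, Tln1 and Pxn. They were taken by name, as all probe sets that the array's annotation assigns to one of these symbols, which gave 16 probe sets for the 10 genes out of 8251 named genes on the array. RNA was measured once in each of 5 mouse co-cultures of spleen or bone marrow cells kept under conditions for making osteoclasts, which resorb bone. The groups were Fos-/- spleen cells infected with a deltaNFAT virus, Fos-/- spleen cells infected with a GFP (green fluorescent protein) virus, Fos-/- spleen cells without virus, Fos+/+ bone marrow cells and Fos+/+ spleen cells. The Fos protein is part of the AP-1 complex, which binds DNA, and NFAT proteins are transcription factors activated through calcineurin; what the deltaNFAT construct encodes beyond its name is not given in the labels.

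All 5 groups shared the stromal cell line ST2-T, dexamethasone, 1,25-dihydroxyvitaminD3 and 6 days of culture. Each dish was harvested together with its stroma, so every value is a sum over haematopoietic and stromal cells. The labels give the Fos genotype of the spleen and bone marrow cells but none for ST2-T, and no mouse age or strain. In such bulk samples, fewer cells of a type and less RNA per cell cannot be told apart. With 1 array per group there is no replicate, so no test could be made, and every fold below is a ratio of a pair of arrays without a replicate error.

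Podosomes are small adhesion contacts built around a core of branched actin filaments. Talin, vinculin and paxillin form a ring around this core and couple integrins to actin. Macrophages carry scattered podosomes, while osteoclasts pack them into a belt that seals off the bone surface under the cell. Fibroblast-like cells use many of the same ring proteins in focal adhesions, whereas Rac2 is largely restricted to blood cells.

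For each member, promoter sequence was looked up, because Fos binds DNA within AP-1 and the virus carries an NFAT construct. Of the 10 members, 7 matched by symbol a RefSeq promoter window (build GRCm38.p6, 250 bases before to 50 after an annotated start, 10 windows in all). The windows of the 3 matched genes whose RNA was over 2-fold lower in the Fos-/- spleen array are printed 5′ to 3′ on the gene's strand, with that of Vcl, whose RNA was not lower there, for comparison. Capitals mark TGANTCA, the AP-1 site, which reads the same way on both strands, and GGAAA, the NFAT core, or its reverse complement TTTCC.
Pstpip1, chr9:56089726-56090025, plus strand: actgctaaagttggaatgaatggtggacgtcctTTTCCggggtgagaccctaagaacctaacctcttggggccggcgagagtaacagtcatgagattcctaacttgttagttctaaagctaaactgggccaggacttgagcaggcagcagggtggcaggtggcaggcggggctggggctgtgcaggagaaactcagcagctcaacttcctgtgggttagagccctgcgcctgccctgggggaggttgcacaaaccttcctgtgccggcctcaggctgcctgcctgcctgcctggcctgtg
Capg, chr6:72549397-72549696, plus strand: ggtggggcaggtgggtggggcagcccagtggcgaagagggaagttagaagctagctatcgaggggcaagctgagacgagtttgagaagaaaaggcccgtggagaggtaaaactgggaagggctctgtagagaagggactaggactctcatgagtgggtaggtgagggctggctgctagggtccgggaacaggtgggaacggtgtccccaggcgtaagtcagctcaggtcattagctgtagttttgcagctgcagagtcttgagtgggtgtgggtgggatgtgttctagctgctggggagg
Anxa2, chr9:69453433-69453732, plus strand: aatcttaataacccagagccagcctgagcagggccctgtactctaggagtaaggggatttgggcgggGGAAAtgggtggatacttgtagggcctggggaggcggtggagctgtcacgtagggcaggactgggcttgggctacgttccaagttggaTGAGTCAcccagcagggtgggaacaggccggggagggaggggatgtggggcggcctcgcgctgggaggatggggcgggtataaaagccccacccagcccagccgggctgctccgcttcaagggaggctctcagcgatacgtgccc
Vcl, chr14:20929148-20929447, plus strand: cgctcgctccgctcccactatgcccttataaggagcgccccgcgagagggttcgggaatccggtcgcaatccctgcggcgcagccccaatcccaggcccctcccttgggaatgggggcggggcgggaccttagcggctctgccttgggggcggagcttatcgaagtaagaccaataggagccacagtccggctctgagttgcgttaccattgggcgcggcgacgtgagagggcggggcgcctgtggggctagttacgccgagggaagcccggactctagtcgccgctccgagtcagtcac

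The Anxa2 window held TGAGTCA, beginning 95 bases before the start, and GGAAA, beginning 183 bases before it. The Pstpip1 window held TTTCC, beginning 217 bases before the start, and the Capg and Vcl windows held neither set of letters. TGANTCA was in 1 of the 10 members' windows and in 7.81% of all 32851 mouse promoter windows of this length. GGAAA or TTTCC was in 5 of the 10 windows and in 61.3% of all windows. The motifs do not overlap in these windows, and a match is a description of the letters only.

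Intensities are linear values, given here after each deposited array was rescaled to an equal trimmed mean, and some are below 0. Values under a floor of 19.8, the 40th percentile of all values, were raised to it before ratios were taken. Within a pair of arrays, higher or lower was called for a gene when the ratio reached 2-fold and the brighter array reached 39.6, which is 2 times the floor. All 10 members, each read by its brightest probe set, lay above 39.6 in all 5 arrays, so none of them entered through 1 group only. The member nearest to that limit was Bcar1, at 41.8 in Fos+/+ bone marrow.

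The share of probe sets over the floor ran from 58.4 to 62.2% across the arrays. Fos itself read 581 with deltaNFAT virus, 607 with GFP virus, 426 in Fos-/- spleen, 614 in Fos+/+ bone marrow and 849 in Fos+/+ spleen on its brighter probe set. Where these probes lie relative to the deletion was not stated in the labels, and the dishes held stroma too, so this reading checks no label. Of 5564 genes reaching 39.6 in at least 1 array, 4.04% were at least 2-fold higher in each of the bone marrow and virus arrays than in both uninfected spleen arrays, and 0.467% lower. No member was among these. The pair of uninfected spleen arrays and the pair of GFP and bone marrow arrays each lie on one side of that division.

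In spleen co-cultures, RNA of Pstpip1, Rac2, Capg and Anxa2 was over 2-fold lower in the Fos-/- array than in the Fos+/+ array, while the RNA of the podosome ring genes Vcl, Tln1 and Pxn and of Gsn, Bcar1 and Ptk2b stayed within 2-fold. In Fos-/- over Fos+/+ spleen, 4 of 10 members were lower and 0 higher. The background in that pair was 6.52% of 4999 genes lower and 6.4% higher, 12.9% in all. The members' median log2 ratio was -0.42, against 0.03 over all 4999 genes. The members were named with these differences already known, so the count describes them and is no independent evidence.

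Rac2 encodes a small GTPase of blood cells that drives actin polymerization and activates the phagocyte oxidase. It read 444 with deltaNFAT virus, 399 with GFP virus, 393 in Fos-/- spleen, 785 in Fos+/+ bone marrow and 1398 in Fos+/+ spleen. The 3 Fos-/- arrays lay close together and under both Fos+/+ arrays. Rac2 was 3.56-fold lower in Fos-/- than in Fos+/+ spleen, which placed it 82nd from the lowest of 4999 ratios.

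**Figure D1:**
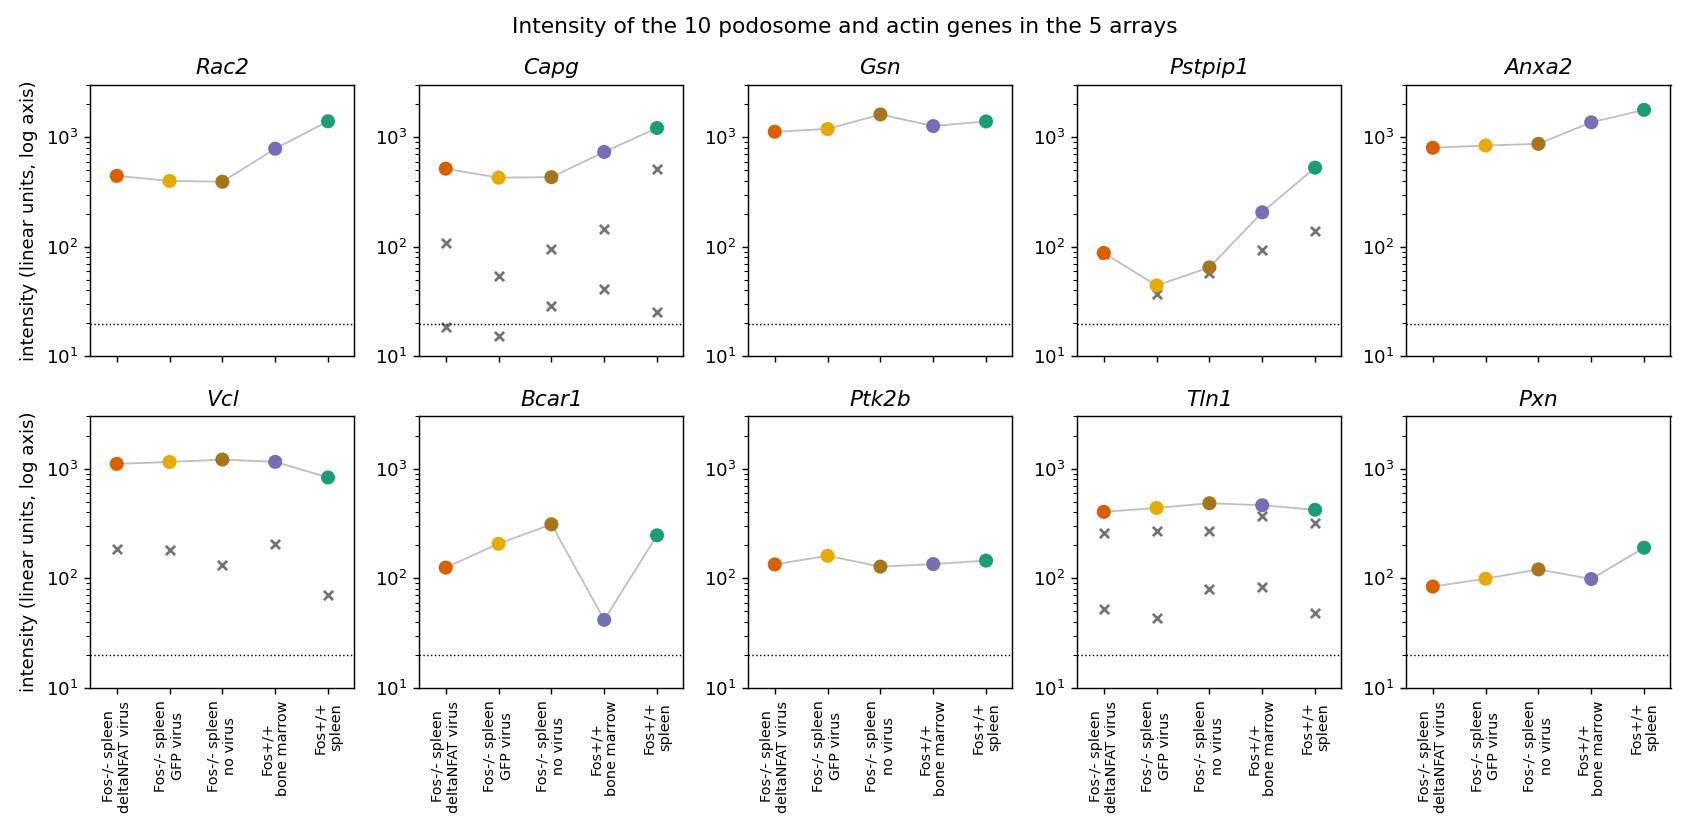
Intensity (log axis) of the 10 genes in the 5 arrays, 1 array per group. Points, 1 colour per array and joined by a line to guide the eye, are the brightest probe set of each gene, grey crosses its other probe sets, and the dotted line the floor of 19.8. Rac2, Capg, Pstpip1 and Anxa2 are lower in all 3 Fos-/- arrays than in both Fos+/+ arrays, and Bcar1 is lowest in Fos+/+ bone marrow at 41.8.

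Capg encodes a gelsolin-family protein that caps the fast-growing ends of actin filaments without cutting them, and it is abundant in macrophages. Its brightest probe set read 517 with deltaNFAT virus, 428 with GFP virus, 432 in Fos-/- spleen, 734 in Fos+/+ bone marrow and 1213 in Fos+/+ spleen. The order of the arrays by genotype was thus that of Rac2, and Capg was 2.81-fold lower in Fos-/- than in Fos+/+ spleen. A second probe set, whose identifier carries the letter f that marks possible reading of related transcripts, gave a larger ratio of 5.30-fold lower, from 96.4 in Fos-/- spleen against 511 in Fos+/+ spleen. The third was dim, between 15.3 and 41.5 in the 5 arrays, and carried no 2-fold difference between these spleen arrays.

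Gsn encodes gelsolin, the founding member of the same family, which both cuts and caps filaments and is needed for podosomes in mouse osteoclasts. It read 1122 with deltaNFAT virus, 1189 with GFP virus, 1614 in Fos-/- spleen, 1265 in Fos+/+ bone marrow and 1393 in Fos+/+ spleen. The genotypes overlapped, and the highest array was 1.44-fold over the lowest. Scin, a further gelsolin relative in the fixed list of actin severing and capping genes, was under the floor in the 3 Fos-/- arrays but read 55.9 in Fos+/+ bone marrow and 135 in Fos+/+ spleen. It was at least 6.79-fold lower in Fos-/- than in Fos+/+ spleen. Svil and Vil1 are further relatives in that list, named outside the rule. Svil read 579 in Fos-/- spleen against 370.1 in Fos+/+ spleen, a difference under 2-fold, and Vil1 was under the floor in both.

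Pstpip1 encodes a membrane-bending adaptor that binds the Wiskott-Aldrich syndrome protein, an activator of branched actin assembly, and the phosphatase encoded by Ptpn12. It had the largest difference of the 10 genes. It read 88.0 with deltaNFAT virus, 44.4 with GFP virus, 64.9 in Fos-/- spleen, 206 in Fos+/+ bone marrow and 528 in Fos+/+ spleen. It was 8.13-fold lower in Fos-/- than in Fos+/+ spleen, 14th from the lowest of 4999 ratios. The 44.4 and 64.9 lay within the scatter about 0, as 1% of values lay under -91.5 with GFP virus and -90.7 in Fos-/- spleen. The size and rank of every Pstpip1 ratio that uses them are therefore uncertain. With the floor raised to 90.7, Pstpip1 was still called lower in Fos-/- than in Fos+/+ spleen. The other probe set, again with the letter f, gave 57.4 in Fos-/- spleen against 139 in Fos+/+ spleen, a smaller ratio of 2.41-fold lower. The partner genes, named outside the rule, differed less. Was read 218 in Fos-/- spleen against 333 in Fos+/+ spleen, and Ptpn12 read 140.1 against 136 in the same arrays.

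Anxa2 encodes annexin A2, a calcium-dependent membrane and actin binding protein that pairs with the S100a10 product. It read 801 with deltaNFAT virus, 840.0 with GFP virus, 870.5 in Fos-/- spleen, 1368 in Fos+/+ bone marrow and 1777 in Fos+/+ spleen. It was 2.04-fold lower in Fos-/- than in Fos+/+ spleen, just past the limit, and only 1 probe set reads it. S100a10, named outside the rule, read 721, 637, 881, 1237 and 1488 in the same order of arrays. The 3 Fos-/- arrays were under both Fos+/+ arrays for this gene as well, but its 1.69-fold difference between Fos-/- and Fos+/+ spleen was under 2-fold.

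**Figure D2:**
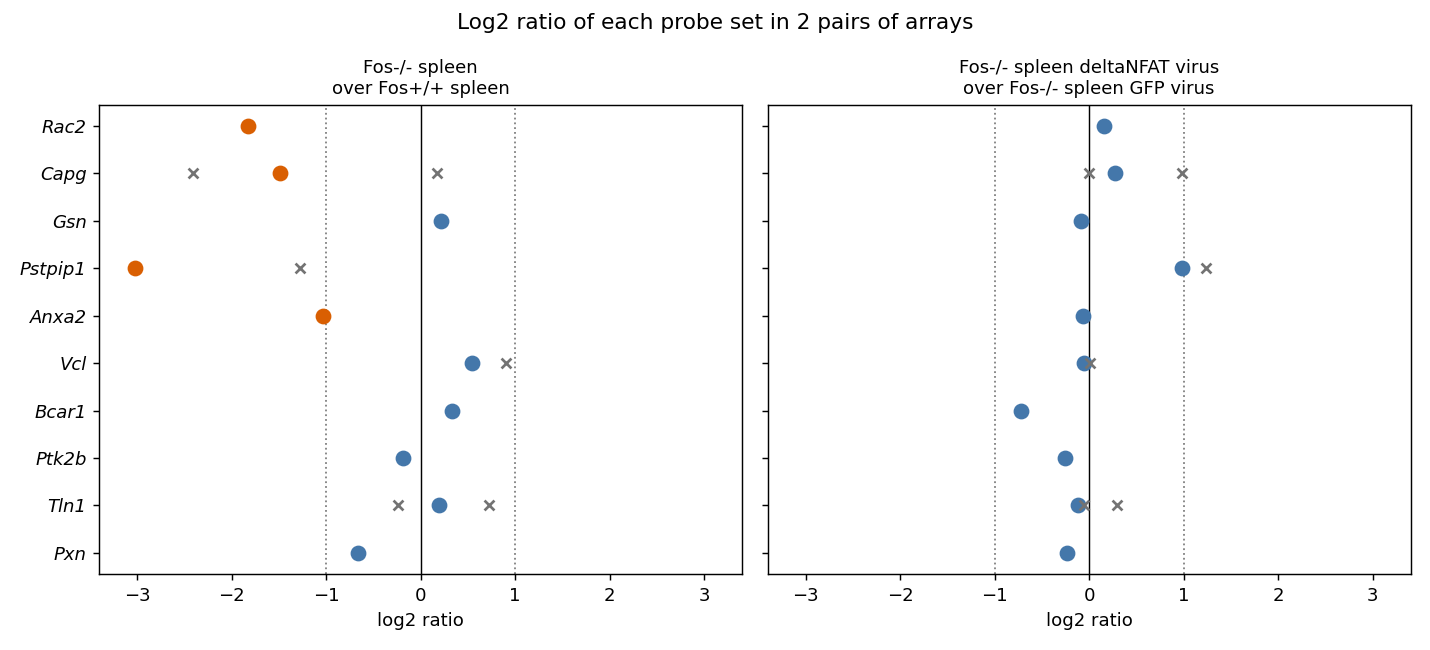
Log2 ratio of each probe set in Fos-/- over Fos+/+ spleen (left) and in deltaNFAT over GFP virus (right). Circles are the brightest probe set of a gene, orange where it passed 2-fold and blue where it did not, grey crosses are its other probe sets, and dotted lines mark 2-fold. On the left 4 genes lie past -1, down to -3.02 for Pstpip1, and on the right no circle passes 2-fold.

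RNA of the genes for the ring proteins that link integrins to actin showed no difference past 2-fold between these spleen arrays. Vcl, encoding vinculin, read 1107 with deltaNFAT virus, 1150.2 with GFP virus, 1211 in Fos-/- spleen, 1155 in Fos+/+ bone marrow and 831 in Fos+/+ spleen. The Fos+/+ spleen array was the low one, and the other 4 lay between 1107 and 1211. Its dimmer probe set spread more widely, at 183, 182, 131, 208 and 70.1 in the same order. On that probe set Fos+/+ bone marrow was 2.96-fold over Fos+/+ spleen, whereas the brighter one gave 1.39-fold.

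Tln1 encodes talin, which binds integrin tails and switches integrins on. It read 404 with deltaNFAT virus, 438 with GFP virus, 484 in Fos-/- spleen, 464 in Fos+/+ bone marrow and 422 in Fos+/+ spleen, a range of 1.20-fold. That probe set carries the letter r in its identifier, for probes chosen under relaxed design rules. The brighter of the unlettered probe sets ranged from 258 to 372 and the dimmer from 43.1 to 83.1, and none of the 3 passed 2-fold in any of the 7 pairs of arrays compared.

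Pxn encodes paxillin, a docking protein for kinases at adhesion sites. It read 84.1 with deltaNFAT virus, 99.1 with GFP virus, 121 in Fos-/- spleen, 98.5 in Fos+/+ bone marrow and 190.2 in Fos+/+ spleen. The Fos+/+ spleen array stood alone as the highest, and Fos+/+ bone marrow lay among the Fos-/- arrays. Pxn was 1.58-fold lower in Fos-/- than in Fos+/+ spleen, under the 2-fold limit.

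The signalling members behaved differently from each other. Ptk2b encodes the adhesion kinase Pyk2, which acts with Src downstream of integrins in osteoclasts. It read 134 with deltaNFAT virus, 160.4 with GFP virus, 128 in Fos-/- spleen, 135 in Fos+/+ bone marrow and 145 in Fos+/+ spleen. The genotypes overlapped within a 1.26-fold range. Src, named outside the rule, was under the floor in all 5 arrays. Such a reading does not tell absent RNA from a probe set that responds poorly.

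Bcar1 encodes the adhesion scaffold p130Cas, which is phosphorylated by Src-family kinases. It read 125 with deltaNFAT virus, 207 with GFP virus, 311 in Fos-/- spleen, 41.8 in Fos+/+ bone marrow and 247 in Fos+/+ spleen. The uninfected spleen arrays of both genotypes were the highest, and the bone marrow array was the lowest. In the bone marrow array 1% of values lay under -133, so the 41.8 lay within its scatter about 0. The size of every ratio that uses the 41.8 is therefore uncertain. Between Fos-/- and Fos+/+ spleen Bcar1 differed by 1.26-fold. Only 1 probe set reads it.

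Markers of other cells moved in the same pair of arrays. The summed intensity of 10 osteoclast markers was 2491 in Fos-/- spleen against 16696 in Fos+/+ spleen, and 8 of the 9 bright enough were over 2-fold lower. The 11 macrophage markers summed to 8195 against 6659.9, with 3 higher and 1 lower. The 10 neutrophil markers summed to 3219.6 against 1388, with 5 over 2-fold higher in Fos-/- spleen. The 13 stromal markers summed to 15299.9 against 12984, with 2 higher. Of the 9 lymphocyte markers on the array, Cd3e, Cd3d, Cd3g and Cd8a were under the floor in all 5 arrays, and the list summed to 768 against 595. The mast cell and megakaryocyte list summed to 57.4 against 71.2 and the erythroid list to 66.0 against 89.8. The part of these other genes in the values of Pstpip1, Rac2, Capg and Anxa2 was not tested.

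A pair of arrays that shares none with the first also contrasts the genotypes, namely Fos-/- spleen with GFP virus and Fos+/+ bone marrow, though it differs in tissue and virus too. There 1 of 10 members was lower and 1 higher, with backgrounds of 9.19% lower and 5.98% higher among 5253 genes (15.2% in all). Pstpip1 was 4.65-fold lower (44.4 with GFP virus against 206 in Fos+/+ bone marrow). On the brightest probe set of each gene, Rac2 was 1.97-fold lower, Capg 1.72-fold and Anxa2 1.63-fold, all under 2-fold. The Capg probe set with the letter f passed, at 2.67-fold lower (54.7 with GFP virus against 146 in Fos+/+ bone marrow). The dim Capg probe set passed as well, at least 2.10-fold lower (15.3, under the floor, against 41.5). Bcar1 was 4.94-fold higher (207 with GFP virus against 41.8 in Fos+/+ bone marrow), though its GFP value lay under the 247 of Fos+/+ spleen. Osteoclast markers summed to 2121 with GFP virus against 12390.2 in bone marrow, and their part in these values was not tested.

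Considering all arrays, 4 of the 10 members (Rac2, Capg, Pstpip1 and Anxa2) read lower in all 3 Fos-/- arrays than in both Fos+/+ arrays, against a background of 15.1% of 5564 genes. No member showed the opposite order, for which the background was 10%. Of the 10, only Pstpip1 was at least 2-fold lower in each Fos-/- array than in each Fos+/+ array, and 0.899% of the 5564 genes were. The opposite held for 0 members and 0.413% of genes. Each gene was read here by its brightest probe set. The dimmer Pstpip1 probe set lacked this 2-fold separation, at 86.4 with deltaNFAT virus against 94.3 in Fos+/+ bone marrow. These arrays differ in tissue and virus and are not replicates of a genotype.

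With deltaNFAT virus, no member passed 2-fold over the GFP virus control in Fos-/- spleen cells. The count was 0 of 10 in either direction, against a background of 3.52% higher and 2.66% lower among 5033 genes (6.18% in all), and the members' median log2 ratio was -0.08, against -0.00 over all genes. Pstpip1 came closest, at 88.0 with deltaNFAT virus against 44.4 with GFP virus, a ratio of 1.98-fold. Its dimmer probe set read 86.4 against 36.8 and passed at 2.35-fold, and the mean of both probe sets passed as well with a log2 ratio of 1.11. Against the Fos-/- array without virus, however, Pstpip1 with deltaNFAT was 1.36-fold higher, and the GFP value lay below the uninfected one.

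The other members lower in Fos-/- spleen differed less between the viruses on their brightest probe sets. Rac2 was 1.11-fold higher with deltaNFAT than with GFP, Capg 1.21-fold higher and Anxa2 1.05-fold lower. The second Capg probe set was 1.97-fold higher with deltaNFAT (108 against 54.7), just under the limit, and the third was under the floor in both arrays. Osteoclast markers differed more in this pair, with 6 of the 9 bright enough over 2-fold higher with deltaNFAT virus and summed intensities of 4290.0 with deltaNFAT against 2121 with GFP. The sums of the macrophage markers were 9164 against 9283, and those of the stromal markers 14453 against 15097. Neutrophil markers summed to 4787 against 6997 and lymphocyte markers to 836 against 1093, with no gene of either list past 2-fold. The part of all these markers in the members' values was not tested. Relative to Fos+/+ spleen, the deltaNFAT array held 16.7% of Pstpip1, 31.8% of Rac2, 42.6% of Capg and 45.1% of Anxa2. For the same genes the GFP array held 8.42, 28.6, 35.2 and 47.3%, and the uninfected Fos-/- array 12.3, 28.1, 35.6 and 49.0%. On the second Pstpip1 probe set the deltaNFAT, GFP and uninfected Fos-/- arrays held 62.4, 26.6 and 41.4%. On the second Capg probe set they held 21.1, 10.7 and 18.9%. Bcar1 was 1.65-fold lower with deltaNFAT than with GFP virus.

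**Figure D3:**
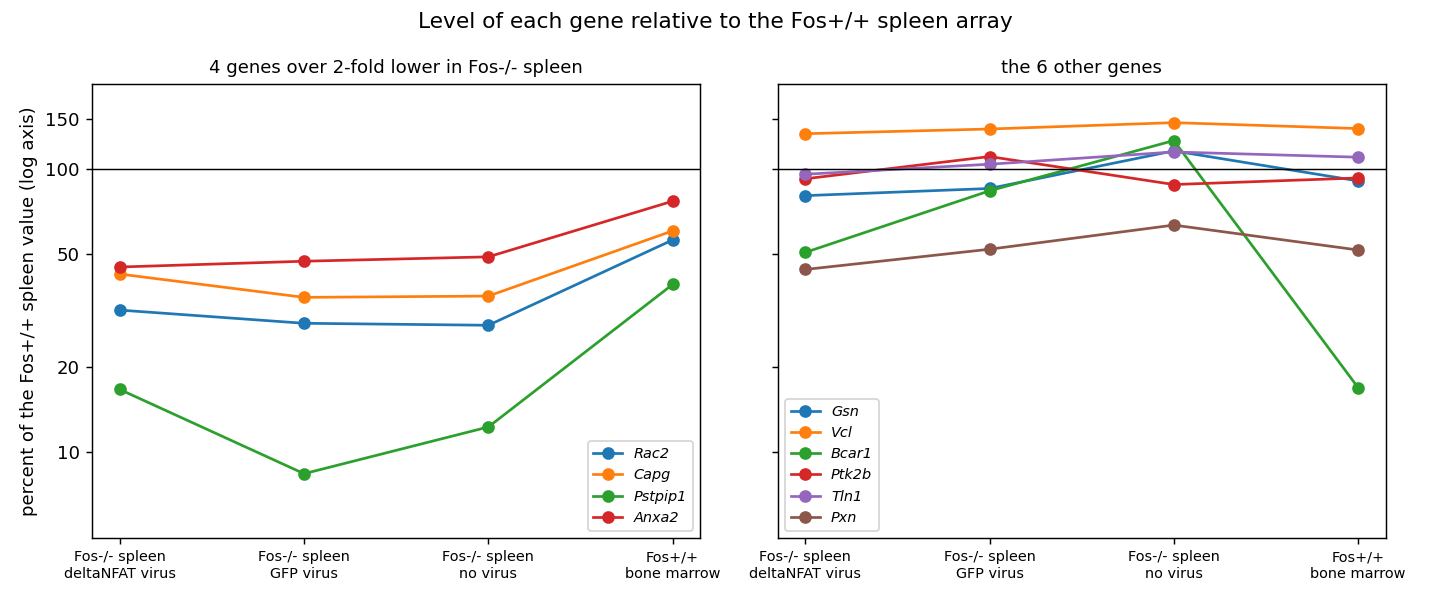
Intensity of each gene as a percent of its Fos+/+ spleen value (log axis) in the other 4 arrays, with the 4 genes over 2-fold lower in Fos-/- spleen on the left and the 6 others on the right. Each gene is read by its brightest probe set. On the left the 3 Fos-/- arrays stay at 49.0% or less while Fos+/+ bone marrow lies between 39.1 and 77.0%. On the right Vcl is above 100% in all 4 arrays, and Bcar1 is at 16.9% in bone marrow.

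Each virus array was also set against Fos-/- spleen without virus, and these pairs share that array. With GFP virus 0 of 10 members passed 2-fold, against 10.3% higher and 7% lower among 5114 genes (17.3% in all), and the ratios ran from -0.59 (Bcar1) to 0.33 (Ptk2b) on the log2 scale. With deltaNFAT virus 1 of 10 was lower and 0 higher, against 6.66% lower and 11% higher among 5178 genes (17.7% in all). That member was Bcar1, at 125 with deltaNFAT virus against 311 without virus, 2.48-fold lower. Beside it, 5 of 9 bright osteoclast markers were higher (4290.0 with deltaNFAT virus against 2491 without virus). Of 11 bright stromal markers 3 were lower (14453 against 15299.9), and of 5 bright lymphocyte markers 3 were lower and 1 higher. Among bright macrophage markers 3 of 11 were higher, and among bright neutrophil markers 2 of 9. The part of all these markers in the Bcar1 value was not tested. Set against Fos+/+ spleen, the deltaNFAT array had 5 of 10 members lower and 0 higher, with backgrounds of 9.23% lower and 14.2% higher among 5210 genes (23.4% in all). These were Pstpip1 (6.00-fold), Rac2 (3.15-fold), Capg (2.35-fold), Pxn (2.26-fold) and Anxa2 (2.22-fold), and Bcar1 missed the limit at 1.97-fold lower. The second Pstpip1 probe set was 1.60-fold lower (86.4 against 139), under the limit. The second Capg probe set was 4.74-fold lower and the second Vcl probe set 2.62-fold higher. In the same pair 8 of 9 bright osteoclast markers were lower (summed intensity 4290.0 with deltaNFAT virus against 16696 in Fos+/+ spleen). Of 9 bright neutrophil markers 8 were higher (4787 against 1388), and the part of these other genes was not tested.

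Between the Fos+/+ tissues, 2 of 10 members were lower in bone marrow than in spleen and 0 higher, against backgrounds of 7.18% lower and 13.1% higher among 5289 genes (20.3% in all). Bcar1 was 5.90-fold lower (41.8 in bone marrow against 247 in spleen), 15th from the lowest of 5289 ratios. That size and rank are uncertain, because the 41.8 lay within the scatter about 0 of its array. With the floor raised to 90.7, the count of members lower in bone marrow was still 2. Pstpip1 was 2.56-fold lower, and under 2-fold when both of its probe sets were averaged. On their brightest probe sets, Pxn at 1.93-fold, Rac2 at 1.78-fold, Capg at 1.65-fold and Anxa2 at 1.30-fold were also lower but under the limit. The Capg probe set with the letter f passed, at 3.50-fold lower (146 in bone marrow against 511 in spleen). The dim Capg probe set was 1.63-fold higher in bone marrow, under the limit. Osteoclast markers summed to 12390.2 in bone marrow against 16696 in spleen, and neutrophil markers to 9819 against 1388; their part in these values was not tested.

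The members that vary can be described by the genes whose pattern lay closest. Likeness was measured as the root mean square difference of log2 values, each centred on its mean over the 5 arrays, among 4109 other genes above the floor in all arrays and reaching 79.2 in at least 1. For Rac2 the closest were Ifi30 (0.09), Anpep (0.13) and Capg itself (0.16), and for Capg they were Cmas (0.10), Slc27a1 (0.10) and the proton pump subunit gene Atp6v1c1 (0.12). For Pstpip1 they were the surface glycoprotein gene Cd200 (0.16), the creatine kinase gene Ckb (0.26) and the myosin gene Myo1d (0.29). Ckb is also 1 of the 10 osteoclast markers summed above. For Anxa2 the closest genes were St3gal1 (0.07), Mrpl51 (0.07) and the integrin chain gene Itgb7 (0.08).

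Pxn lay closest to Agap3 (0.06), Asf1b (0.06) and Prmt1 (0.07). Bcar1 had no close match, its nearest being Shroom3 (0.28), Txndc5 (0.30) and Cd5l (0.31), all of them lowest in bone marrow like Bcar1. Cd5l, for example, read 321 with deltaNFAT virus, 379 with GFP virus, 649 in Fos-/- spleen, 104 in Fos+/+ bone marrow and 352 in Fos+/+ spleen. Gsn, Vcl, Ptk2b and Tln1 varied less than 2-fold over the 5 arrays and were given no nearest genes. The 6 members with a spread of 2-fold or more compare with 37.2% of the 4110 genes in this set.

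Other genes of the actin and adhesion machinery were taken from 4 lists, of which 89 of 109 genes were on the array. In Fos-/- over Fos+/+ spleen, 4 of the 73 bright enough were higher, 3 lower and 66 neither, and their median log2 ratio was 0.04, against 0.03 over all genes. The shares over all 4999 genes in that pair were 6.4% higher and 6.52% lower, and the list counts stood near or under them. None of the 14 bright genes in the list named Arp2/3 complex and nucleation passed 2-fold. The Arp2/3 complex nucleates branched actin, and the list also held genes outside the complex and its activators, such as Diaph1 and Vasp. Among genes that cut, cap or bundle filaments, 1 was higher and 1 lower of 26. The lower one was Scin, and the higher one was the adducin gene Add1, at 321 in Fos-/- spleen against 61.5 in Fos+/+ spleen (5.23-fold).

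Among 22 adhesion kinases and adaptors 2 were higher and 2 lower, counts too small to set the list apart from the same 6.4% and 6.52% of all genes. The hyaluronan receptor gene Cd44 was at least 4.82-fold lower and the membrane linker ezrin, Ezr, 2.10-fold lower. The Src-family kinase gene Yes1 was 2.74-fold higher, at 95.9 in Fos-/- against 35.0 in Fos+/+ spleen. Its highest array was Fos+/+ bone marrow, at 144, so its order did not follow the genotype. The second higher gene was Fyn, a Src-family kinase gene named outside the rule, at 2.06-fold. Of 11 annexins and S100 genes 1 was higher, Anxa3 at 2.86-fold, and 0 lower.

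In deltaNFAT over GFP virus, of the 72 bright list genes 1 was higher and 2 lower, against 3.52% higher and 2.66% lower of all 5033 genes. The median log2 ratio was -0.04 over the lists and -0.00 over all genes. Anxa8 was 2.69-fold higher (81.5 with deltaNFAT virus against 30.3 with GFP virus). Tgfb1i1, encoding the paxillin relative Hic-5, read 273 against 554 and was 2.03-fold lower. The tropomyosin gene Tpm2 read 64.9 against 129.8, lower at the very edge of 2-fold.

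**Figure D4:**
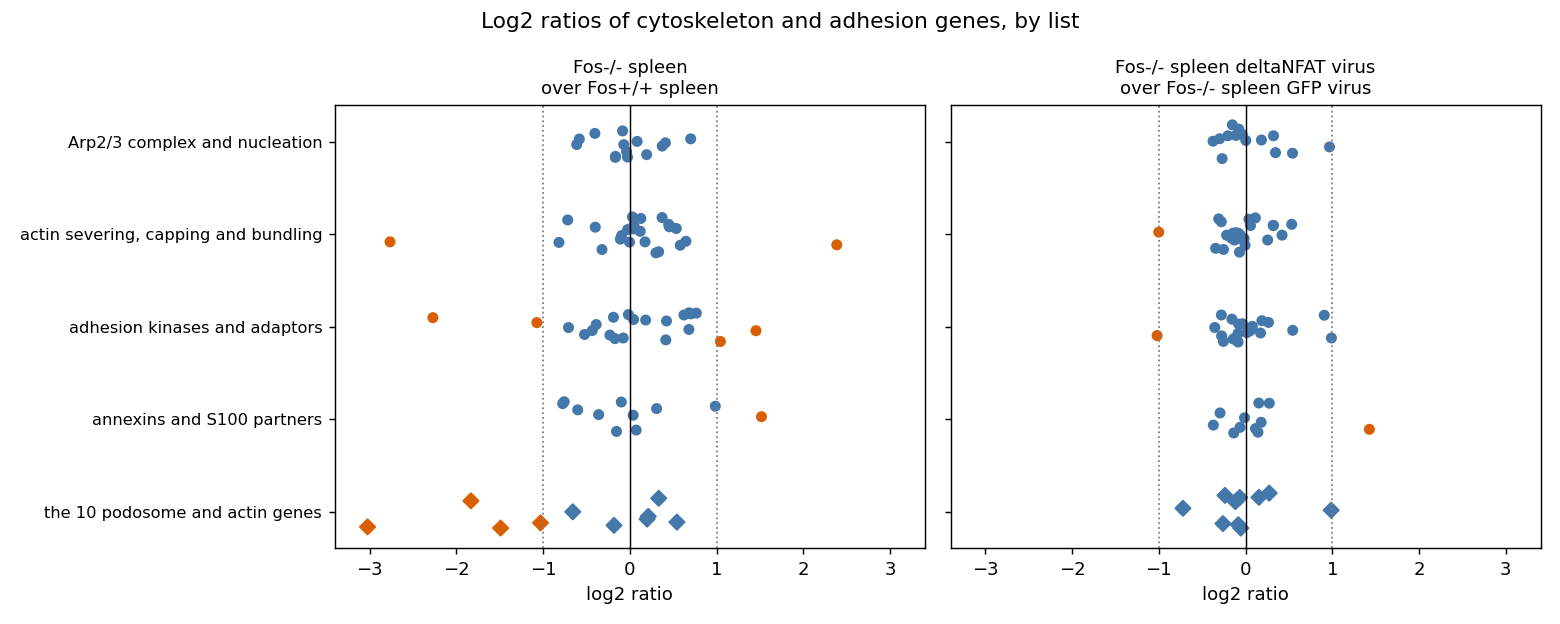
Log2 ratio of genes in 4 cytoskeleton and adhesion lists (circles, jittered vertically) and of the 10 genes described here (diamonds) in Fos-/- over Fos+/+ spleen (left) and in deltaNFAT over GFP virus (right). Orange marks genes past 2-fold and blue the others, dotted lines mark 2-fold, and genes with no array at 39.6 or more are left out. Of 73 list genes on the left 4 are orange as higher and 3 as lower, and of 72 on the right 1 and 2. Of the 10 genes 4 are orange on the left and 0 on the right.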

How the data were processed

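Co-cultures were profiled on 1-colour oligonucleotide arrays with 12488 probe sets. The authors deposited 1 linear intensity per probe set and array; its software was not given in the sources used here. From the values, the arrays as deposited had a common mean of 100.0 without the lowest and highest 2%, and 20.3 to 22.4% of values lay at or below 0. All 5 columns matched a sample, named by its title.

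Each array was rescaled to an equal trimmed mean, floored at 19.8 and log2-transformed (Python 3.11.15, pandas 2.3.3, numpy 2.4.6, figures with matplotlib 3.10.9). Only probe sets with 1 annotated symbol were used (10833, without 66 control probe sets), and a gene was read by the probe set of highest mean. With 1 array per group no test was possible, and the number of arrays limits the precision. The calling step was checked on simulated data with known changes, which gives no error rate for these arrays. Named genes were all members, the 3 largest called ratios per list in the first pairs, and the 3 nearest genes of each varying member. Members, lists and rules were chosen with earlier results of these data known. Alternatives were other scaling, floors and probe set choices. The results of 1 further gene list are not reported here.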

Additional observations from a re-analysis of the deposited data

How the results depend on the processing

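Under 7 alternatives (values as deposited, quantile normalization, floors at 7.40, 65.1 and 90.7, the mean of all probe sets, and probe sets without a letter suffix) 484 of 490 member ratios kept their side of the limit and 0 of the called ones changed sign. The 4 members lower in Fos-/- than in Fos+/+ spleen passed under all 7. In deltaNFAT over GFP virus the count was 1 in the mean of all probe sets, through Pstpip1. With quantile normalization Pxn in bone marrow over spleen (-1.06) and Rac2 in GFP virus over bone marrow (-1.03) passed. With the mean of probe sets Pstpip1 (-0.95) no longer passed in bone marrow over spleen, while Vcl (1.02) did, and Capg passed in GFP virus over bone marrow (-1.09). The cause was not tested. Counts over the wider lists, whose alternatives were chosen after seeing the data, shrank at the highest floor: in Fos-/- over Fos+/+ spleen 3 higher and 1 lower at 90.7, against 4 and 3, and in deltaNFAT over GFP virus 0 higher and 1 lower, against 1 and 2. Background counts moved too. In Fos-/- over Fos+/+ spleen all genes gave 320 higher and 326 lower, 502 and 512 at the floor of 7.40, and 79 and 105 at 90.7. In deltaNFAT over GFP virus 177 higher and 134 lower became 374 and 258, or 22 and 13. At the same floors, deltaNFAT virus over no virus gave 858 and 503, or 184 and 84 (569 and 345 at 19.8), and GFP virus over no virus 775 and 562, or 175 and 60 (529 and 358). Bone marrow over spleen gave 1001 and 577, or 175 and 101 (694 and 380), GFP virus over bone marrow 505 and 797, or 81 and 84 (314 and 483), and deltaNFAT virus over Fos+/+ spleen 1015 and 653, or 253 and 174 (739 and 481). Counts at the floor of 65.1 lay between those at 19.8 and 90.7. Quantile normalization gave 523 higher and 497 lower in bone marrow over spleen, and 402 higher and 359 lower in GFP virus over bone marrow. No paired analysis was possible because each group has 1 array.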

Other observations

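Of the 89 genes of the wider lists on the array, only Rdx and Pls3 were over 2-fold higher in the bone marrow and virus arrays than in both uninfected spleen arrays. None of the 10 members followed this division past 2-fold on their brightest probe set. Of 5564 genes, 4.04% did, so Rdx and Pls3 do not set the lists apart from other genes. Rdx and Pls3 were chosen after their values were seen, and no cause is assigned. Rdx, encoding the membrane to actin linker radixin, read 267 with deltaNFAT virus, 237 with GFP virus, 81.1 in Fos-/- spleen, 276 in Fos+/+ bone marrow and 91.3 in Fos+/+ spleen, and the actin bundling gene Pls3 read 542, 548, 193, 488 and 178 in the same order. For both genes the bone marrow and virus arrays were over 2-fold above both uninfected spleen arrays, whatever the Fos genotype. On the dimmer Vcl probe set the bone marrow and virus arrays also lay above both (183, 182, 131, 208 and 70.1), with less than 2-fold between the lowest of the 3 and Fos-/- spleen. Tissue, virus and any handling that these arrays share cannot be told apart.

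Other genes of the lists, also chosen after their values were seen, had orders of their own. Anxa1, encoding another annexin, read 1608 with deltaNFAT virus, 1330.1 with GFP virus, 654 in Fos-/- spleen, 1659 in Fos+/+ bone marrow and 992 in Fos+/+ spleen, so its lowest array was uninfected Fos-/- spleen, whereas Anxa2 was low in all 3 Fos-/- arrays. The actin bundling gene Fscn1 read 610.2, 629, 1359, 912 and 1079.6 in the same order, lowest in the virus arrays.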
